A study of Mus musculus with 4 samples.

Results

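MHC class I molecules present short peptides made inside the cell to T cells. A class I molecule is a polymorphic or conserved heavy chain bound to β2-microglobulin, the product of *B2m*. Peptides cut by the proteasome are carried into the endoplasmic reticulum by the transporter formed from *Tap1* and *Tap2*, and tapasin, the product of *Tapbp*, holds empty class I molecules at this transporter until a peptide is bound. In the thymus, class I on the epithelium selects CD8 T-cells, and the thymocytes themselves also carry class I. The 10 genes described here are *B2m*, the classical heavy chains *H2-K1* and *H2-D1*, the non-classical class I genes *H2-T10*, *H2-T22*, *H2-T23* and *H2-M3*, and the loading genes *Tap1*, *Tap2* and *Tapbp*. They were chosen by name and function, with earlier results of these data known and with no threshold on a measured value, out of 24421 genes listed. Their values are therefore a description.

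RNA was sequenced from CD69+CD4+CD8+ (CD69+DP) thymocytes, which have received a T-cell receptor signal, sorted by FACS from the adult thymus of mice aged 6 weeks on a C57BL/6 background. The 2 control samples had the genotype Foxa1fl/flFoxa2fl/fl CD4Cre-, and the 2 Foxa1/2cKO samples had the genotype Foxa1fl/flFoxa2fl/fl CD4Cre+, so that both groups carried the floxed alleles of the forkhead transcription factor genes *Foxa1* and *Foxa2*. In Foxa1/2cKO these are deleted by a Cre transgene under *Cd4* control, which acts in thymocytes and not in the thymic epithelium. The samples do not share mice, and a sort used 2 mice of a genotype. The labels do not say how many mice each sample holds.

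Values are FPKM, fragments scaled to the length of the gene and to a size factor of the sample, so levels of genes can be set side by side. The reads recovered from them on listed genes, up to a common divisor of a gene, ranged from 10736317 to 14943059 a sample and were fewer in both Foxa1/2cKO samples. *Foxa1* and *Foxa2* had a value of 0 in each of the 4 samples and so do not check the genotypes. The 10 markers of DP thymocytes were all above 0 and their summed FPKM ran from 2845 to 3595, with *Cd8b1* at 592, 613, 668 and 974 and *Cd8a* at 487, 495, 475 and 666 in control 1, control 2, Foxa1/2cKO 1 and Foxa1/2cKO 2, the order used throughout. The Foxa1/2cKO samples differed more from each other than the controls did, with a median absolute log2 difference over 10776 genes of 0.20 against 0.08, so each result is given for both of them. In bulk RNA of this kind, fewer cells of a type and less RNA per cell cannot be told apart.

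*B2m* (chromosome 2, 122147687 to 122153082 of GRCm38, the assembly also called mm10) lies apart from the other 9 genes, which lie on chromosome 17 in or beside the MHC, between the start of *Tapbp* at 33919478 and the end of *H2-M3* at 37274485. RefSeq promoters of GRCm38.p6, which span 250 bases before to 50 bases after a gene start, were found for 8 of the 10 genes. They were searched on both strands for letters of elements known from class I promoters and for a forkhead motif. Those of *B2m*, *H2-K1*, *H2-D1* and *H2-T23* are shown 5′ to 3′ on the strand of the gene because they belong to the most abundant chains, with the matched letters in capitals. They are chr2:122147437-122147736 on the plus strand, chr17:34000298-34000597 on the minus strand (the first of a pair listed for *H2-K1*), chr17:35262844-35263143 on the plus strand and chr17:36032652-36032951 on the minus strand.
B2m: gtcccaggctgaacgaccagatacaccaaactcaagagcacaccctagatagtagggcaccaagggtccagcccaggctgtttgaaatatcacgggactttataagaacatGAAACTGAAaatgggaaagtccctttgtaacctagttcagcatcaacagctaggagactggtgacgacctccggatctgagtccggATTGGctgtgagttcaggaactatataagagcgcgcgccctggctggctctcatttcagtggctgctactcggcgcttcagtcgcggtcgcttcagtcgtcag
H2-K1: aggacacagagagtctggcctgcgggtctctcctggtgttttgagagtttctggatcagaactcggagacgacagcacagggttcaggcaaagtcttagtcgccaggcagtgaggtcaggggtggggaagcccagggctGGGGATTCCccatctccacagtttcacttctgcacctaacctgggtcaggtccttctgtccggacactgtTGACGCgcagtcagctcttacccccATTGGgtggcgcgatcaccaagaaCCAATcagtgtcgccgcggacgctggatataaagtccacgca
H2-D1: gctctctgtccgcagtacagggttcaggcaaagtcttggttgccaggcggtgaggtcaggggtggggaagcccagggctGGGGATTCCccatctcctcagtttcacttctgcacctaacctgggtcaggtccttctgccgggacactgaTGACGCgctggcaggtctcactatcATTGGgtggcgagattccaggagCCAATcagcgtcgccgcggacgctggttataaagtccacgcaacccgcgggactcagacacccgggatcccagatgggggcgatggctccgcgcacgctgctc
H2-T23: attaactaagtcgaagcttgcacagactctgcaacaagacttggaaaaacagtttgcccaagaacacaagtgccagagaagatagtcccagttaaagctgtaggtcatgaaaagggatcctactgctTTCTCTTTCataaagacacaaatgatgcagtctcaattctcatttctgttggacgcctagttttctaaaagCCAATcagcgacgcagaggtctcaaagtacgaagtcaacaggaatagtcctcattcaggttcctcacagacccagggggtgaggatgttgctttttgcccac

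The letters GAAANNGAA, the core of an interferon-stimulated response element, were in the promoters of 3 of the 8 genes, *B2m*, *H2-T22* and *H2-T23*. They were in 9.76% of the 27025 genes with a promoter. GGGNNTTCC, a κB-like motif, was as exact letters in those of *H2-K1* and *H2-D1* only among the 8, and in 6.58% of genes with a promoter. The *B2m* window holds the similar gggaaagtccc, which these letters do not match. TGACGC, like a cAMP response element, was in 3 of the 8, *H2-K1*, *H2-D1* and *H2-M3*, against 8.37% of genes with a promoter. CCAAT was in all 8 and in 41.1% of genes with a promoter. The forkhead letters TGTTTAC were in none of the windows of the 8 genes and in 4.05% of genes with a promoter. None of the matches overlapped another. In *H2-K1* and *H2-D1* the κB-like letters began 70 bases before TGACGC and TGACGC began 25 bases before the reverse CCAAT. With the *H2-D1* window moved by 60 bases the pair held the same base at 176 of 240 positions, or 73.3%. A match describes the letters and is no evidence of binding, and a missing match is no evidence that an element is absent.

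The heavy chain genes are alike enough that reads can fit more than one of them. Over the aligned coding sequence of the GENCODE transcripts, *H2-T10* and *H2-T22* had the same base at 96.9% of 1134 positions, *H2-K1* and *H2-D1* at 91.9% of 1074 and *H2-K1* and *H2-T23* at 83.6% of 1058, while *H2-K1* and *H2-M3* had it at 73.8% of 984. Of the 50-base stretches of the longest coding transcript, 42.9% in *H2-T10* and 44.7% in *H2-T22* were also held by another gene, with 40.2% of those of *H2-T10* in *H2-T22*. This share was 29.8% in *H2-T23*, 21.0% in *Tapbp*, 14.3% in *H2-D1*, 12.6% in *Tap2*, 8.79% in *H2-K1*, 6.47% in *Tap1* and 0.576% in *H2-M3*, and *B2m* shared none. In *Tap1* 5.61% of the stretches were held on either strand by *Psmb9*, which starts beside it on the opposite strand. The counting was not stated to use strand or to treat reads that fit several genes, so the levels of *H2-T10* and *H2-T22* in particular are uncertain.

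Levels of the 10 genes ran from those of abundant transcripts to close to the filter. *B2m* had the highest mean FPKM, 521 over the 4 samples, rank 69 of all listed genes, and *H2-K1* followed with 258 at rank 160. *Tap2* (140) and *H2-T23* (118) came next, and their ranges over the samples overlapped. *Tapbp* (90.9) and *Tap1* (80.3) also overlapped and were followed by *H2-D1* (58.6). *H2-T10* (16.3) and *H2-M3* (14.6) overlapped far below these, and *H2-T22* was lowest at 1.06. The ranges of all other neighbours in this order were apart. The transporter gene *Tap2* was thus listed above *Tap1*, although their products form one complex, and *H2-K1* was listed at several times the level of *H2-D1*. All 10 passed the filter, set at an FPKM of 1 or more for 2 or more samples, *H2-T22* narrowly.

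**Figure D1:**
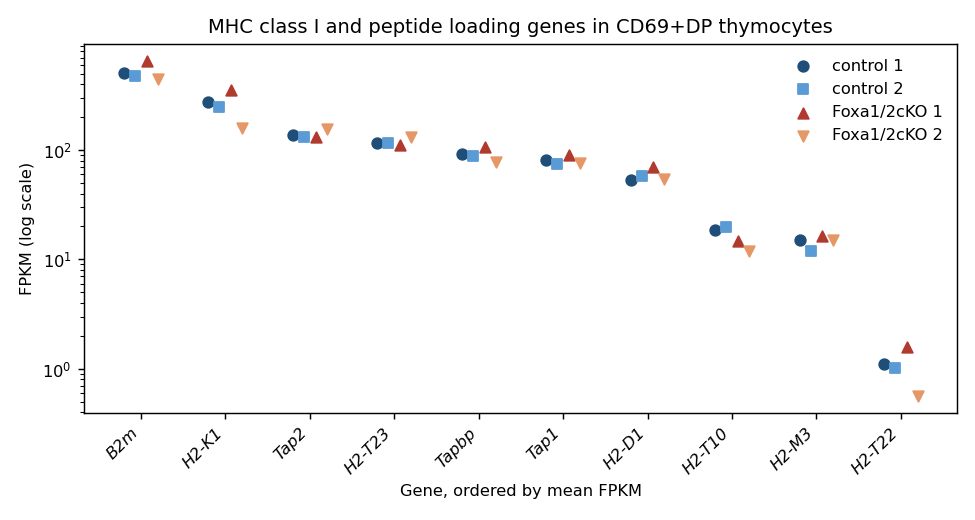
FPKM of the 10 genes on a log axis, ordered by mean FPKM, with 1 point for each sample (circles and squares, control 1 and 2; upward and downward triangles, Foxa1/2cKO 1 and 2). Levels run from 521 for B2m to 1.06 for H2-T22, and the Foxa1/2cKO points lie on both sides of the controls for B2m, H2-K1, Tapbp and H2-T22 and, in the other order, for Tap2 and H2-T23.

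No gene of the group passed the test between Foxa1/2cKO and control. From limma on log2(FPKM + 1) with Benjamini-Hochberg adjustment over all genes, 0 of the 10 reached an adjusted p under 0.05, where 0.00928% of the 10776 genes tested did, and limma-voom on recovered reads also gave 0. At an unadjusted p under 0.05 there was 1 of 10, *H2-T10*, where all genes had 4.55%. The groups did not overlap for 1 of 10, again *H2-T10*, where 36.7% of all genes did not overlap. Of the 10 fold changes 7 were above and 3 below 0, with a median of 0.07 on the log2 scale beside 0.01 for all genes tested. The count of the 10 past the test changed when Foxa1/2cKO 1 was left out and not when Foxa1/2cKO 2 was left out. Without Foxa1/2cKO 1, 5 of the 10 passed where 25.4% of 10619 genes did, *H2-K1*, *H2-T10* and *Tapbp* lower and *H2-T23* and *Tap2* higher, and the lone sample is then assumed to vary as the controls do. Without Foxa1/2cKO 2 there were 0 where 0.224% of 10705 genes passed. The remaining Foxa1/2cKO sample lay outside both controls for 7 and for 10 of the 10, where 86.2% and 77.2% of all genes did. Without control 1 or control 2 the groups did not overlap for 3 and 2 of the 10, where 58.4% and 51.7% of all genes did not.

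**Figure D2:**
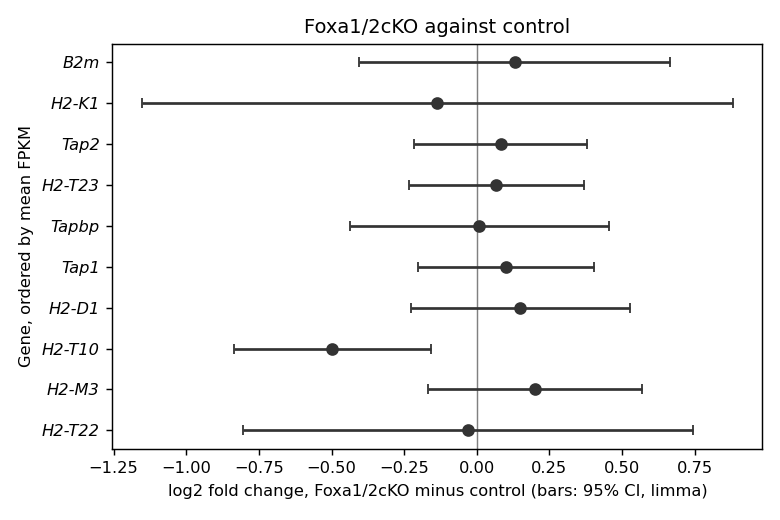
Fitted log2 fold change of each gene, Foxa1/2cKO minus control, on log2(FPKM + 1), with bars for the 95% confidence interval from limma (2 samples a group). The interval includes 0 for every gene except H2-T10 at -0.50, and is widest for H2-K1.

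*B2m* was listed at 505 and 480 in the controls, at 655 in the first Foxa1/2cKO sample and at 443 in the second. The controls thus lay between the Foxa1/2cKO samples, 1 of which was the highest and the other the lowest. Controls had a mean of 492 ± 17.8 (SD, n = 2) and Foxa1/2cKO samples one of 549 ± 150 (SD, n = 2). The fitted log2 difference was 0.13 (standard error 0.20, 95% CI -0.40 to 0.67). The sign depended on the sample, being 0.41 without Foxa1/2cKO 2 and -0.15 without Foxa1/2cKO 1. These levels came from 4216 to 6482 reads, for which counting error alone is 1.24% to 1.54%, so the gap between the Foxa1/2cKO samples is larger than counting error.

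*H2-K1*, which encodes the Kb heavy chain in C57BL/6 mice, had the largest difference between the Foxa1/2cKO samples among the 10 on the log2(FPKM + 1) scale, although the ratio of these samples was larger for the low *H2-T22*, at 2.80. Controls were listed at 273 and 247, the first Foxa1/2cKO sample at 353 and the second at 158. Again the controls lay between, and Foxa1/2cKO 1 was 2.23 times Foxa1/2cKO 2, from 6271 and 2885 reads. Counting intervals (95%, Poisson) of the Foxa1/2cKO samples were 344 to 362 and 152 to 164 and lay far apart. Only 2.60% of the genes tested had a larger difference between these samples on the log2 scale, where that of *H2-K1* was 1.15, while the controls differed by 0.14. The fitted fold change was -0.14 (standard error 0.39, 95% CI -1.15 to 0.88), an interval that spans both a large fall and a large rise. Leaving out Foxa1/2cKO 1 gave -0.71 and leaving out Foxa1/2cKO 2 gave 0.44.

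*H2-D1*, the gene of the Db heavy chain, was listed at 52.8, 58.0, 69.4 and 54.5. Foxa1/2cKO 1 was the highest and Foxa1/2cKO 2 lay between the controls. Its log2 fold change was 0.15 (standard error 0.14), from 1049 to 1371 reads.

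Among the non-classical genes, *H2-T10* was the one with separate groups. It is annotated by RefSeq as a transcribed pseudogene (chromosome 17, 36115871 to 36121444), although its GENCODE transcript has a reading frame as long as that of *H2-T22*. Controls were listed at 18.5 and 19.96 and the Foxa1/2cKO samples at 14.8 and 12.0. Both Foxa1/2cKO samples were below both controls, and their differences from the control mean were -0.36 and -0.64 on the log2(FPKM + 1) scale. Means were 19.2 ± 1.03 (SD, n = 2) for control and 13.4 ± 1.95 (SD, n = 2) for Foxa1/2cKO, and the log2 fold change was -0.50 (standard error 0.13, 95% CI -0.84 to -0.16). It stayed below 0 under every alternative run, from -0.64 to -0.36. The reads, not scaled for the lower depth of both Foxa1/2cKO samples, were 802 and 785 against 462 and 386. For *H2-T10* the adjusted p from limma was 0.863. An exact two-sided permutation test of 2 against 2 cannot go below 0.333.

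*H2-T22*, whose coding sequence differs little from that of *H2-T10*, did not share this pattern. It was listed at 1.10, 1.01, 1.58 and 0.564, from 29, 24, 30 and 11 reads. Foxa1/2cKO 1 was the highest sample and Foxa1/2cKO 2 the lowest, and at this depth its 95% counting intervals, 1.07 to 2.26 and 0.282 to 1.01 in the Foxa1/2cKO samples, each overlapped those of both controls. The *H2-T22* product is a ligand of γδ T-cell receptors.

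*H2-T23* encodes Qa-1, a ligand of the NKG2A receptor. Controls were listed at 115 and 116, the first Foxa1/2cKO sample at 111 and the second at 132. The controls were nearly equal, and the Foxa1/2cKO samples lay on either side of them with the order of *B2m* and *H2-K1* turned round. Its log2 fold change was 0.07 (standard error 0.11). *H2-M3*, which presents N-formylated peptides, was listed at 15.1, 11.9, 16.3 and 14.9. Foxa1/2cKO 1 was the highest but Foxa1/2cKO 2 lay between the controls, and the log2 fold change was 0.20 (standard error 0.14, 95% CI -0.17 to 0.57), the highest of the 10.

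Each of the loading genes had its own order of samples. *Tap1* was listed at 80.6, 74.1, 89.9 and 76.5. Foxa1/2cKO 1 was above both controls and Foxa1/2cKO 2 between them. *Tapbp* was listed at 92.2, 88.0, 106 and 77.2, so that the Foxa1/2cKO samples lay on either side of the controls, as for *B2m*. *Tap2* was listed at 138, 133, 131 and 156, with Foxa1/2cKO 1 lowest and Foxa1/2cKO 2 highest, as for *H2-T23*. Their log2 fold changes were 0.10 (standard error 0.12) for *Tap1*, 0.01 (standard error 0.17) for *Tapbp* and 0.08 (standard error 0.11) for *Tap2*. The sign of *Tapbp* changed under 2 of the other scalings.

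Seen by sample, Foxa1/2cKO 1 was above Foxa1/2cKO 2 for 8 of the 10 genes, all but *H2-T23* and *Tap2*, and for 46.2% of all genes tested. Foxa1/2cKO 1 was above both controls for 7 of the 10 (36.4% of all genes), and Foxa1/2cKO 2 was below both for 5 (39.6% of all genes). The median difference from the control mean on the log2 scale was 0.25 for the first Foxa1/2cKO sample and -0.09 for the second, beside -0.01 and 0.02 over all genes. The median absolute difference between the Foxa1/2cKO samples was 0.31 over the 10 genes and 0.20 over all genes tested, and between the controls it was 0.09 and 0.08.

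**Figure D3:**
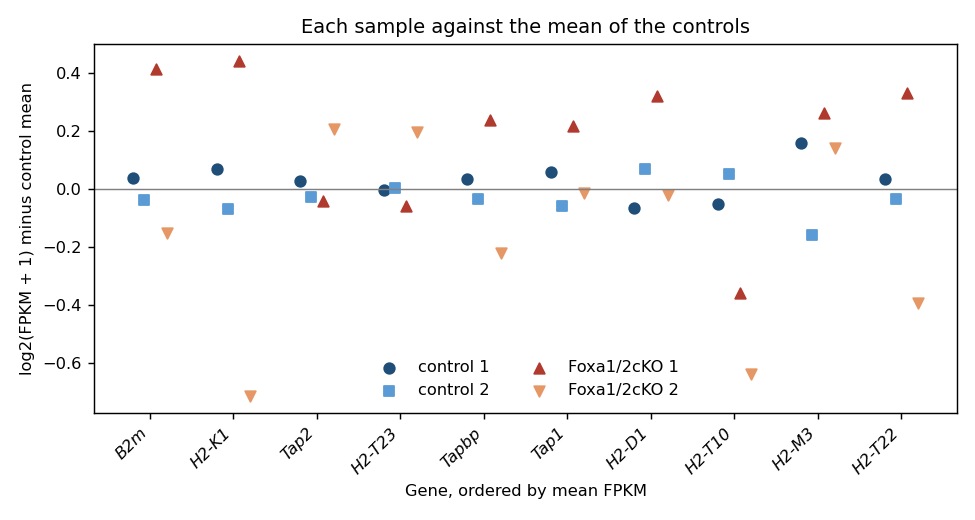
Difference of log2(FPKM + 1) from the mean of the 2 controls for each sample and gene, ordered by mean FPKM (circles and squares, control 1 and 2; upward and downward triangles, Foxa1/2cKO 1 and 2). Foxa1/2cKO 1 lies above Foxa1/2cKO 2 for 8 of 10 genes, and only H2-T10 has both below both controls.

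Ratios within a sample do not depend on the scaling between samples. *H2-K1* over *B2m* was 0.540, 0.516, 0.539 and 0.357. The ratio was thus alike in 3 samples and lower in Foxa1/2cKO 2. *H2-T23* over *B2m* was 0.228, 0.241, 0.169 and 0.299. *H2-D1* over *B2m* stayed between 0.105 and 0.123. *H2-T10* over *B2m* was 0.0366, 0.0416, 0.0225 and 0.0271, so the groups stayed apart on this scale. *H2-K1* over *H2-D1* was 5.16, 4.26, 5.09 and 2.90. *Tap2* over *Tap1* was 1.71, 1.79, 1.46 and 2.04, with the Foxa1/2cKO samples on either side of the controls, and *Tapbp* over *Tap1* was 1.01 to 1.19 in all samples.

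**Figure D4:**
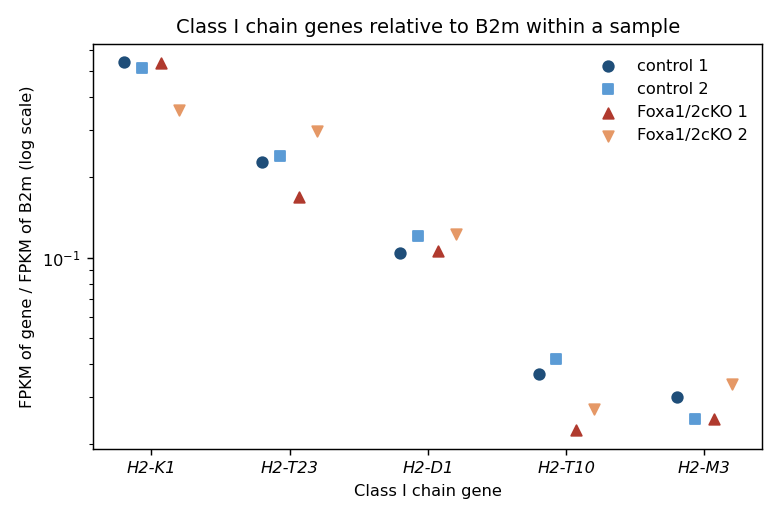
FPKM of each class I chain gene divided by that of B2m in the same sample, on a log axis, with 1 point a sample (symbols as in the plot of levels; H2-T22 is left out for its low reads). H2-K1 is at 0.357 in Foxa1/2cKO 2 and above 0.5 in the other samples, and H2-T10 is lower in both Foxa1/2cKO samples.

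Markers of other cell types also differed between the samples, and not all in the same order. The 6 B cell markers were all above 0, with summed values of 77.9, 51.8, 107 and 55.7 FPKM (*Cd79a* 23.6, 11.4, 27.2 and 15.8; *Cd79b* 19.1, 20.1, 26.4 and 19.3; *Ms4a1* 10.9, 6.02, 18.6 and 6.00). The 11 class II presentation genes, all above 0, summed to 511, 275, 588 and 371, led by the invariant chain gene *Cd74* at 185, 99.5, 191 and 116. *H2-Aa* was at 103, 50.2, 134 and 78.3 and *H2-Ob* at 12.9, 9.63, 19.8 and 13.6. Foxa1/2cKO 1, the sample with the most *B2m* and *H2-K1*, was thus the highest for both lists, but control 2 was the lowest for both and not for *B2m* or *H2-K1*. The 8 myeloid and dendritic markers, all above 0, summed to 38.0, 22.2, 37.4 and 18.7 (*Lyz2* 13.8, 8.78, 15.2 and 7.08; *Cd68* 8.09, 5.02, 5.35 and 3.25; *Csf1r* 2.47, 1.41, 2.15 and 0.675). Those of thymic epithelium, 6 of 6 above 0 in at least 1 sample, summed to 6.52, 4.89, 7.61 and 5.52. Most of this sum came from *Epcam* (2.76, 2.89, 3.86 and 3.37) and *Aire* (3.26, 1.71, 3.43 and 1.82). The other epithelial markers rested on 0 to 8 reads a sample. In the erythroid list, with 4 of 6 at 0, *Alas2* was at 0.608 to 2.62.

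Markers of mature single-positive (SP) thymocytes were lowest in the sample that was also lowest for *H2-K1*. They summed to 502, 530, 559 and 435 FPKM, with 9 of 10 above 0 and *H2-Q7* at 0. *Ccr7*, a chemokine receptor of cells that leave the cortex, was at 82.5, 91.7, 86.9 and 39.1, and *Il7r* at 33.7, 44.1, 41.5 and 13.4. *Dusp2*, the most abundant of this list, was at 116, 109, 99.6 and 128, so the list did not move as one. The part of these markers in the split of the class I genes was not tested.

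The other lists of the pathway held no gene past the test, and none is read as changed. Of 30 other class I and class I-like chains 9 passed the filter, 6 higher and 3 lower, with a median log2 fold change of 0.12. The groups did not overlap for 2 higher and 1 lower of these 9, or 33.3%, beside 36.7% of all genes. *H2-Q4*, listed at 75.2, 77.4, 84.4 and 90.7, and *H2-T24*, at 17.1, 15.6, 19.7 and 21.1, were the higher ones. *H2-Q1*, at 1.62, 1.42, 1.37 and 1.38, was the lower one. *H2-T24* and *H2-Q1* were chosen for naming after their values were seen. *H2-Q2* was listed at 70.2, 57.8, 54.7 and 131 and *Mr1*, which presents riboflavin metabolites to MAIT cells, at 29.2, 30.0, 28.5 and 48.2. Both were thus highest in Foxa1/2cKO 2, where *H2-K1* was lowest. For 6 of these 9 genes Foxa1/2cKO 2 was above both controls, as it was for 46.3% of all genes. *H2-Q6* and *H2-Q7* were listed at 0 in all samples, and 35.0% and 34.9% of their 50-base stretches are held by other genes. Their values therefore say only that they are listed at 0.

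Partners of peptide loading in the endoplasmic reticulum, 12 of 12 tested, had 6 higher and 6 lower and a median of 0.02. The groups did not overlap for 3 higher and 2 lower of these, or 41.7%, near the 36.7% of all genes. *Calr*, the gene of the chaperone calreticulin, was at 239, 257, 236 and 204 and *Pdia3*, which bridges tapasin in the loading complex, at 132, 144, 126 and 108, both lower in both Foxa1/2cKO samples. The immunoproteasome and PA28 genes, 5 of 5 tested, had 3 higher and 2 lower and a median of 0.03. *Psmb8* was at 267, 273, 286 and 322 and *Psmb10* at 43.7, 40.8, 45.7 and 51.2. These were the 2 of 5 without overlap, or 40%, near the 36.7% of all genes. *Psmb9*, the neighbour of *Tap1*, was at 66.6, 62.8, 74.5 and 55.0, the sample order of *Tapbp*, and was chosen for naming after its values were seen. Among the 3 constitutive catalytic subunits, *Psmb5* was at 44.2, 42.7, 54.6 and 58.8, *Psmb6* at 112, 117, 107 and 116 and *Psmb7* at 107, 113, 110 and 117.

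Regulators of class I transcription, 13 of 13 tested, had 5 higher and 8 lower and a median of -0.03. *Nfkb1* was at 86.6, 80.7, 94.0 and 71.9, *Creb1* at 27.3, 27.1, 29.6 and 29.9 and *Nfya* at 39.9, 37.3, 31.6 and 39.3. *Nlrc5*, the class I transactivator, was at 20.5, 18.7, 25.3 and 13.0. It had the sample order of *B2m* and *H2-K1*, and it too was chosen after its values were seen.

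Interferon and receptor signalling genes, 11 of 11 tested, had 8 higher and 3 lower and a median of 0.06, with *Ifngr1* at 142, 139, 170.1 and 170.2 and *Jak1* at 144, 136, 167 and 189. The 20 interferon-induced genes had 17 higher and 3 lower, beside 5523 higher and 5253 lower of all genes tested. Their median was 0.18, and 7 of 20 did not overlap, all higher, a share near the 36.7% of all genes. *Epsti1* was at 35.1, 37.0, 59.3 and 60.6, *Igtp* at 57.6, 60.2, 64.8 and 77.1 and *Iigp1* at 2.10, 1.91, 4.54 and 2.80. Foxa1/2cKO 1 was above Foxa1/2cKO 2 for 17 of the 20, where it was for 46.2% of all genes, and the median of the list differed from the control mean by 0.40 in the former and -0.07 in the latter. Without Foxa1/2cKO 1 the median was -0.08. On the T-cell side of class I recognition, 8 of 8 tested, 7 were higher and 1 lower with a median of 0.16. *Lck*, the kinase bound by CD8, was at 749, 741, 675 and 844 and *Themis* at 77.7, 76.6, 89.4 and 127, and the median of this list differed from the control mean by -0.07 and 0.40 in the first and second Foxa1/2cKO sample.

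**Figure D5:**
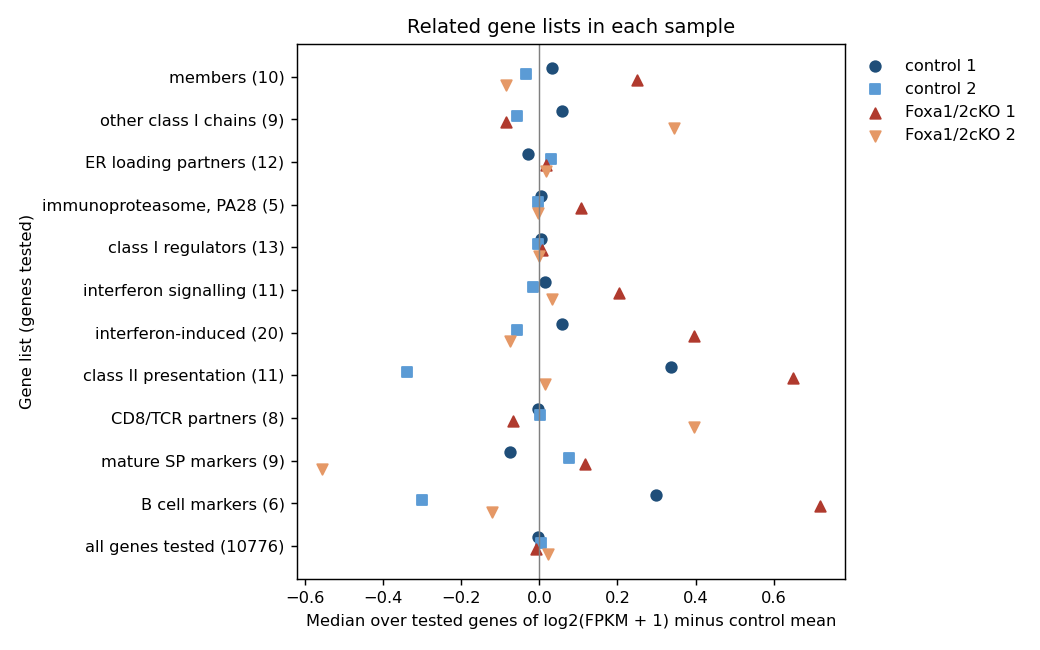
Median over the tested genes of each list of log2(FPKM + 1) minus the control mean, for each sample (circles and squares, control 1 and 2; upward and downward triangles, Foxa1/2cKO 1 and 2). The 10 genes, the interferon-induced genes, class II presentation and B cell markers are highest in Foxa1/2cKO 1, while the other class I chains and the CD8/TCR partners are highest in Foxa1/2cKO 2.

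The neighbours of the class I genes on chromosome 17 were nearly balanced between higher and lower. Between *Tapbp* and *H2-M3* lie 265 other annotated genes, of which 183 were listed and 106 tested, with 48 higher and 58 lower and a median log2 fold change of -0.02. The groups did not overlap for 11 higher and 21 lower, or 30.2%, beside 36.7% of all genes. The pair with the largest fold changes were *Mir6973a* at -1.15, whose 11.1, 9.44, 4.75 and 3.47 rest on 13, 10, 4 and 3 reads, and *Gm8909* at -0.70. *Gm8909* was listed at 3.69, 2.71, 1.43 and 1.73, from 75, 50, 21 and 26 reads, and lies beyond *H2-T10* at 36143812 to 36168602. Its coding sequence matched that of *H2-D1* at 88.8% of 1076 aligned positions and that of *H2-T10* at 75.2% of 1023, and 29.4% of its 50-base stretches are held by other genes.

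Genes outside these lists whose centred log2 profile was nearest to that of *B2m* over the 4 samples were *Nek6* (Euclidean distance 0.02; FPKM 1.59, 1.46, 2.35 and 1.24), *Mid1ip1* (0.04; 2.82, 2.54, 4.0 and 2.32) and *Gpr171* (0.04; 15.3, 14.5, 19.4 and 13.1). Nearest to the mean profile of the 10 genes were *Eml4* (0.01; 20.2, 19.5, 22.5 and 17.7), *Mafg* (0.01; 4.04, 3.87, 4.59 and 3.42) and *Tbc1d1* (0.02; 16.7, 16.1, 18.8 and 14.8). With 4 samples many genes can have such a profile.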

How the data were processed

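RNA of CD69+DP thymocytes was sequenced, with 2 samples a genotype. According to the study's methods, reads were aligned to mm10 with RefSeq genes and counted with HTSeq in union mode, and the submitters' processing notes name TopHat, Picard and DESeq2. The deposited values are FPKM, for 24421 genes, and the step that made them, the read length and the strand setting of the gene counts are not given in the sources used here (exon counts were made without strand). Whole reads were recovered for 100% of the 16069 genes above 0 (within 0.002 reads, up to a common divisor set by annotated lengths), and the divisors of the samples in these FPKM were proportional to median-of-ratios size factors, and samples were thus already scaled to each other. Depth limits the precision of single values by counting error only. The file had 27 symbols turned into dates.

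The 10776 genes that reached an FPKM of 1 in 2 samples or more were fitted with limma 3.58.1 in R 4.3.3 on log2(FPKM + 1) with a mean-variance trend, all 4 samples and genotype only, with Benjamini-Hochberg adjustment at 0.05. There were 2 residual and 2.69 prior degrees of freedom. Fold changes on this scale understate those of low genes. The members and lists were chosen with earlier results of these data known. Named genes are the 10 members, from each other list the gene with the highest mean FPKM and the pair with the largest fold change, the genes nearest in profile, *Foxa1*, *Foxa2* and the pair of MHC neighbours with the largest fold change. *H2-Q6* and *H2-Q7*, listed at 0, fall outside this rule, and any other is marked as chosen after its values were seen. Alternatives were a pseudocount of 0.1, no filter, an FPKM of at least 1 in all samples, upper-quartile scaling, a replicate block, no trend, limma-voom on recovered reads and leaving out each sample; scaling to the sum of FPKM was chosen after seeing the data. Promoters are from RefSeq and transcripts from GENCODE, both for GRCm38. Identity was computed on coding sequences; protein sequences were not used here. The other steps used scipy 1.17.1, numpy 2.4.6 and pandas 2.3.3 in Python 3.11.15, with matplotlib 3.10.9 for figures.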

Additional observations from a re-analysis of the deposited data

How the results depend on the processing

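Of the 10776 genes, 1 had an adjusted p under 0.05 from limma, and the count was 0 with a pseudocount of 0.1, without the filter, with an FPKM of at least 1 in all samples, with limma-voom on recovered reads and with scaling to the sum of FPKM, which was chosen after seeing the data. Leaving out 1 sample gave 0 to 2695 genes, with 2695 without Foxa1/2cKO 1 and 24 without Foxa1/2cKO 2. Of the 10 class I and loading genes, 0 to 5 had an adjusted p under 0.05 when 1 sample was left out, with 5 without Foxa1/2cKO 1, and 2 to 10 had groups that did not overlap, beside 1 with all samples. Without control 1 there were 3, where 58.4% of all genes did not overlap, and without control 2 there were 2, where 51.7% did not. The median log2 fold change of the 10 genes, 0.07, ran from -0.09 without Foxa1/2cKO 1 to 0.25 without Foxa1/2cKO 2. The cause was not tested. *H2-T10* and *H2-M3* kept their sign under every setting, while the others changed sign when a sample was left out, and *Tapbp* also under a pair of scalings. The replicate numbers were not shown to pair the samples, since the differences between replicates 1 and 2 of the groups correlated at -0.06 over genes. A fit with the replicate number as a block also called 1 gene and 0 of the 10. With 2 samples a group, differences of the size of the gap between the Foxa1/2cKO samples could not be told from it.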
